A study of Mus musculus with 9 samples.

Results

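The cytosolic ribosomal protein genes were followed in liver RNA of mice given doxycycline (Dox), tetracycline (Tc) or neither drug. Genes were taken by symbol, as Rpl, Rplp or Rps with a number and its accepted suffixes, or Rpsa, and a mean of at least 50 normalized counts over the 9 libraries was required. Of 32285 gene identifiers in the table, 32158 had a symbol and 81 symbols matched. The level was reached by 78 genes, 47 of the large and 31 of the small subunit, and all 78 were among the 12100 genes tested. The other 3 were the paralogs Rpl3l, Rpl39l and Rpl10l, with means of 1.23, 0.239 and 0 normalized counts, each of them at or under 3 reads in every library.

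The mice were of the Tet-OFF line, which carries a piggyBac CAG-CreERT2 transgene and, at Rosa26, a tTA transactivator behind a loxP-flanked stop and a tetO-driven Venus-ires-mCherry reporter. By the labels all 3 groups received tamoxifen, which removes the stop. The Control group (n = 3) received tamoxifen without either antibiotic. The Dox group (n = 3) drank doxycycline hyclate and the Tc group (n = 3) tetracycline hydrochloride, in each case 2 mg/mL in water with 10 mg/mL sucrose for 7 days from 4 weeks of age. The paper gives the mice treated for these liver profiles as male. What the control mice drank was not stated in the sources used here. Both antibiotics silence tTA and with it the reporter, so a change shared by the Dox and Tc groups cannot be told apart from the loss of Venus and mCherry expression. The mice derived from V6.5 embryonic stem cells, a hybrid line of C57BL/6 and 129 mice, and from which line or litter each liver came was not given in the sources used here.

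A ribosome is built from ribosomal RNA and a fixed set of proteins, nearly all of them needed in equal number, and the liver makes large amounts of it because it secretes most plasma proteins. Most ribosomal protein mRNAs are short, very abundant and begin with a pyrimidine tract (the 5′ TOP motif), through which LARP1 and mTORC1 adjust their translation and stability to nutrients and growth signals. Dox and Tc act on bacteria by binding the small ribosomal subunit, and they also bind the ribosome of mitochondria, whereas the genes described here encode the ribosome of the cytosol.

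Libraries held 7426136 to 12183041 reads on genes. Library 3 of each group lay near a weighted sum of libraries 1 and 2, with weights of 58.4% and 41.7% in controls, 61.3% and 34.5% with Dox and 61.2% and 36.9% with Tc. It lay between libraries 1 and 2 for 46% of all genes tested in controls, 78.1% with Dox and 50.7% with Tc. The 3 libraries of a group may therefore not stand for 3 independent livers, and p-values may be too small. Weights of this kind can also come from 3 similar livers, so they do not settle this. Dox library 2 had the largest shares of genes outside the control range, with 41.5% of all genes tested above and 43.4% below every control library. These shares were 39.3% and 36.4% in Dox library 1, 38.5% and 36% in Dox library 3, and 37.1% and 33.8% in Tc library 1. The effect of the libraries numbered 3 and of Dox library 2 on the ribosomal protein genes is given with each comparison. Hepatocyte markers (10 genes) were above 0 in every library, and their summed level was 1273136 to 1792697 normalized counts in controls, 708925 to 1052395 with Dox and 1052287 to 1477094 with Tc, lowest in Dox library 2. Most of this sum was Alb (956160 to 1408836 in controls and 255547 in Dox library 2), while 5 of the 10 markers had a higher mean with Dox and 4 lay above every control in Dox library 2. All 9 Kupffer cell markers had a lower mean with Dox, and 2 of them were called, against 5% of all genes. Of the tested markers of other cell types, 4 of 7 erythroid, 3 of 4 cycling cell and 1 of 6 endothelial markers were called with Dox. The count was 1 of 5 for neutrophil, 1 of 2 for cholangiocyte and 0 for hepatocyte, stellate, T and B cell markers. Of these tested markers, 2 of 7 erythroid and 2 of 2 cholangiocyte markers had a higher mean with Dox. None of the cycling cell, endothelial or neutrophil markers did. The Kupffer cell markers' sum was 8115 to 15022 normalized counts in controls, 2235 to 8064 with Dox and 3910 to 7590 with Tc. Endothelial markers (6 genes) summed to 4459 to 4624 in controls, 2227 to 2784 with Dox and 3413 to 4009 with Tc, and erythroid markers (9 genes) to 1549 to 6110, 829 to 2538 and 1357 to 2161. The erythroid sum joins genes that moved apart. Alas2 was at 119 to 335 in controls, 1368, 46.0 and 828 in Dox libraries 1 to 3, and 1212, 115 and 775 in Tc libraries 1 to 3. Hbb-bs was at 815 to 3277 in controls, 481 to 708 with Dox and 555 to 748 with Tc. Neutrophil markers (9 genes) summed to 65.6 to 527 in controls, 5.26 to 154 with Dox and 16.6 to 128 with Tc. In Dox library 2, 3 of these 9 lay above and 4 below every control library. Among them Elane, at 3.18 to 20.3 in controls, was at 0 in all 3 Dox libraries. No marker of any cell type was at 0 in all 9 libraries. Tat, a hepatocyte marker that degrades tyrosine, had 159364 normalized counts in Dox library 2 against 11817 to 21169 in controls. In bulk liver, fewer cells of a type and less RNA per cell cannot be told apart, and the part of cell makeup in the results below was not tested.

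The start of several of these mRNAs is shown first, since the tract there is the feature by which the family is known. In the RefSeq promoter table (GRCm38.p6), 58 of the 78 genes were found. A C at the annotated start followed by at least 4 pyrimidines was present in 13 of the 58 genes (22.4%) against 2.99% of 9525 genes tested that the table holds, and such a tract within 5 bases of the start in 28 (48.3%) against 23.9%. The windows below run 5′ to 3′ across the annotated start, which is the first capital in the first 6 genes. Capitals mark the unbroken pyrimidines from that base on. Pyrimidines just before it, present in all 6, are left in lower case. The last 3 genes, chosen for their level or role, have no tract that begins within 5 bases of the start.
Rps27: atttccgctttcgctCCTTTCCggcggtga
Rps18: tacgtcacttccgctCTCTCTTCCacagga
Rpl35: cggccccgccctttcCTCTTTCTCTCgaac
Rplp2: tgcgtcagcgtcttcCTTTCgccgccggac
Rpl15: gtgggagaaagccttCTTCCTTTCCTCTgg
Rps6: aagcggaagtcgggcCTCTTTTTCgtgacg
Rplp0: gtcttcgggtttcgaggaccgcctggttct
Rpl4: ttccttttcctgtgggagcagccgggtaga
Rpsa: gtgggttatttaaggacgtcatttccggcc

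In GRCm38.p6 these windows are chr3:90213634-90213663 on the minus strand for Rps27, chr17:33955651-33955680 on the minus strand for Rps18, chr2:39005117-39005146 on the minus strand for Rpl35, and chr7:141447636-141447665 on the plus strand for Rplp2. That of Rpl15 is chr14:18270972-18271001 and that of Rps6 chr4:86857353-86857382, both on the minus strand. The windows of Rplp0 (chr5:115559452-115559481), Rpl4 (chr9:64173372-64173401) and Rpsa (chr9:120127751-120127780) are on the plus strand. Each spans the end of the upstream region and the first bases of the first exon. An annotated start can lie some bases from the start used in liver. A window without capitals therefore says only that no such tract begins within 5 bases of the annotated start. The window of Rpl4 holds such letters farther upstream.

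Other promoter letters were counted in the window from 250 bases before to 50 bases after the start, on both strands. The ETS core CCGGAAG was found in 24 of 58 ribosomal protein genes (41.4%) against 20.0% of the genes tested, and the M4 core TCGCGA in 13 (22.4%) against 5.66%. The YY1 core AAGATGG was found in 9 (15.5%) against 8.49%. The Sp1 box GGGCGG (62.1% against 67.4%) and TATAAA (10.3% against 9.32%) had shares nearer to each other. Matches can overlap, as the ETS and YY1 cores can at AAG, and a match is a description of the sequence and not a bound site.

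**Figure D1:**
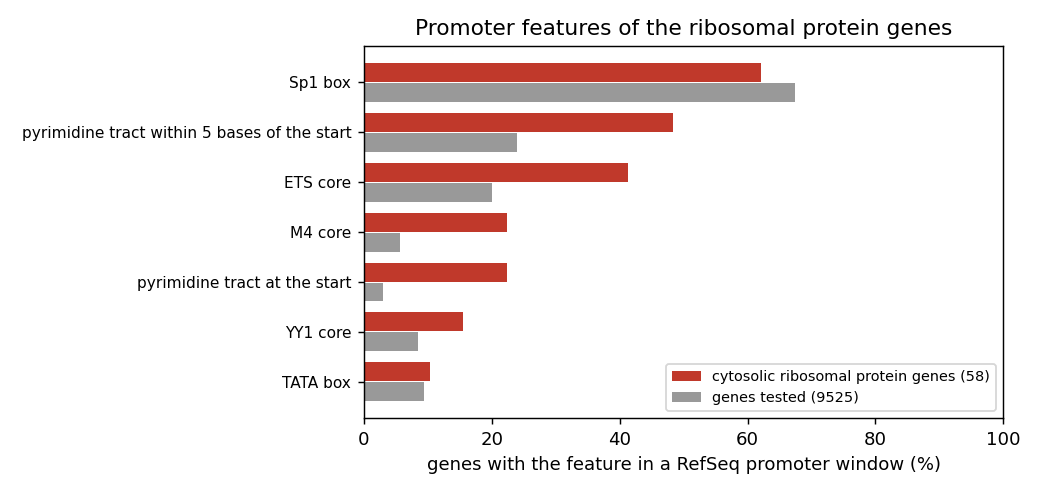
Share of genes with each sequence feature in a RefSeq promoter window (x axis, percent; both strands for the motifs), for 58 cytosolic ribosomal protein genes (red) and 9525 genes tested (grey). The pyrimidine tract at the start (22.4% against 2.99%), the M4 core (22.4% against 5.66%) and the ETS core (41.4% against 20.0%) were the more frequent in the ribosomal protein genes, and the Sp1 box was not.

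Cytosolic ribosomal protein mRNAs took a small share of the liver counts and the Dox libraries varied most. The share of normalized counts on the 78 genes was 0.643%, 0.803% and 0.691% in control libraries 1 to 3, which gives 0.712% ± 0.082 (SD, n = 3). It was 0.683%, 1.44% and 0.926% in the Dox libraries (1.02% ± 0.389, SD, n = 3) and 0.652%, 0.696% and 0.672% in the Tc libraries (0.673% ± 0.022, SD, n = 3). Dox library 2 was the highest of the 9, Dox library 3 was second, and Dox library 1 lay within the control range. The 95% Wilson intervals of these shares, which cover counting error only, were narrow (1.436% to 1.453% in Dox library 2), far less than the spread between libraries. Dox library 2 also had the highest share of counts on the mitochondrial genome, 2.38% against 0.791% to 1.13% in controls. Its share on its 10 most abundant genes was the lowest, 17.1% against 23.8% to 27.3% in controls. The other Dox libraries were similar in both, with 1.87% and 19.2% in Dox library 1 and 1.99% and 17.3% in Dox library 3. The part of either in the share on ribosomal protein genes was not tested.

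Levels within the family differed widely. Per kilobase of the principal transcript, the mean over 9 libraries was highest for Rplp1 (4350 normalized counts per kb), a stalk protein, followed by Rps14 (3321) of the small subunit and Rpl4 (2928) of the large one. It was lowest for Rps20 (176), Rpl27 (251) and Rpl5 (358). The value of Rps20 rests on an annotated transcript of 3706 bases, against a median of 680.5 bases for the family and 2832 bases for the genes tested, and depends on that choice. These levels give the mRNA counted by unique alignment and not the amount of protein.

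Unique alignment matters here because ribosomal protein genes have many processed copies. In the GENCODE M21 transcripts, 76 of the 78 genes shared at least 1 run of 86 bases, the read length, with a transcript of another gene, and 33 shared over 50% of such runs (median 46.4%). Rps27 shared the most (98.5%). A read from such a run has more than 1 possible origin and may be left out of the counts, so the level of a gene like Rps27 is uncertain. In Dox library 2 the median log2 level relative to controls was 0.80 for the 33 genes over 50% and 0.80 for the 45 others.

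The libraries were compared gene by gene as log2(normalized count + 1) minus the mean of the control libraries. Over the 78 genes the median was -0.04, 0.04 and -0.00 in control libraries 1 to 3 and -0.04, 0.80 and 0.23 in Dox libraries 1 to 3. It was -0.13, 0.09 and -0.12 in Tc libraries 1 to 3. The median over all genes tested stayed between -0.03 and 0.02 in every library. The median in Dox library 2 was thus 1.74 times the control level on a linear scale, and that in Dox library 1 lay at the level of control library 1.

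**Figure D2:**
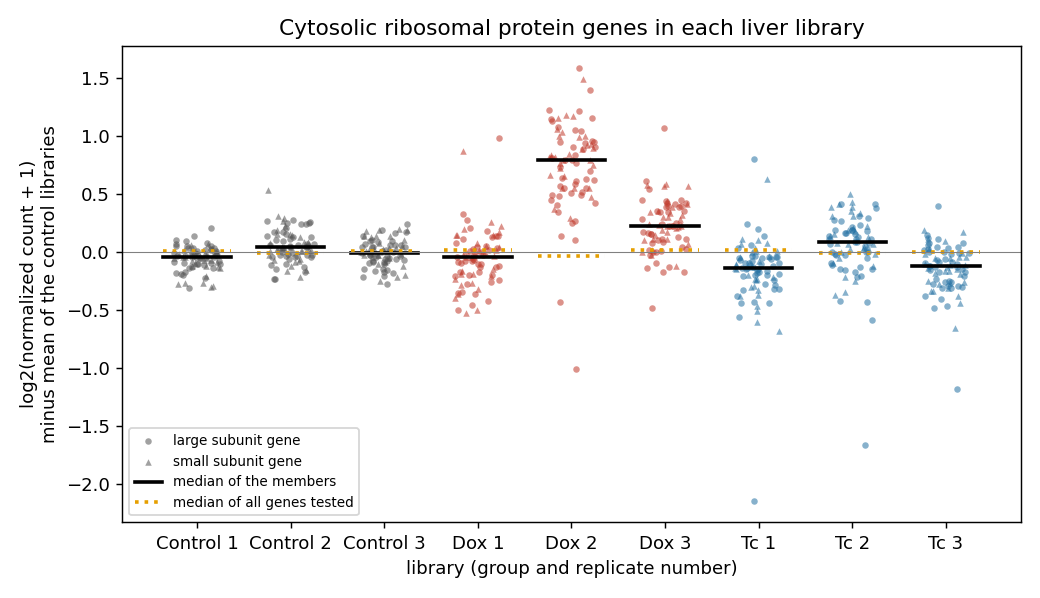
Level of each of the 78 genes in each library (y axis, log2(normalized count + 1) minus the mean of the 3 control libraries; circles for large and triangles for small subunit genes), with the median over the 78 genes (black line) and over the 12100 genes tested (dotted line). Dox library 2 had a median of 0.80 with nearly all points above 0, and Rpl34 and Rpl29 were the farthest points of the Tc libraries.

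Nearly every gene of the family was high in Dox library 2. There 76 of the 78 genes lay above every control library (41.5% of all genes tested did), and the exceptions, Rpl34 and Rpl36al, lay below every one. In Dox library 1, 18 genes lay above (39.3% of all genes) and 29 below every control library (36.4%). In Dox library 3, 50 lay above (38.5%) and 5 below (36%). Between Dox libraries 2 and 1 the median difference of the 78 genes was 0.85 on the log2 scale, and 75 of them were higher in library 2. The largest such difference was 1.59, for Rpl12, a protein at the base of the stalk that was named for this after its values were seen. Dox library 3 lay between the first and second for 75 of the 78 genes (78.1% of all genes tested).

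In the Tc libraries the genes were mostly at or under the control level. In Tc library 1, 46 genes lay below every control library (33.8% of all genes tested) and 7 above (37.1%). In Tc library 3, 41 lay below (31.7%) and 4 above (33.4%), whereas in Tc library 2, 39 lay above (31.4%) and 13 below (31%). The direction therefore differed between the Tc libraries.

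The first comparison asked how far Dox perturbed the family. Against the controls, the median log2 fold change of the 78 genes with Dox was 0.31 (quartiles 0.18 and 0.47) beside 0.00 for all genes tested, and 72 genes had a value above 0, against 50% of all genes tested. A value above 0.25 was found for 48 genes (30.1% of all genes tested). No gene passed the study's limits of a fold change over 2 and an adjusted p under 0.05 in limma, which 5% of all genes passed, and none passed the adjusted p alone (8.41% of all genes). At an unadjusted p under 0.05, 10 genes were higher and 0 lower, and these 12.8% were near the 13.6% of all genes that were higher at this limit. DESeq2 on the recovered reads gave 1 gene at its adjusted p, Rpl35a (17.1% of all genes), and 21 higher at an unadjusted p under 0.05 (16.3% of all genes). The Dox libraries lay above all control libraries for 17 genes (16.1% of all genes) and below them for 0 (17.1%), and without the libraries numbered 3 for 22 (19.9%) and 0 (19.8%).

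The size of this shift depended on Dox library 2. Without it the median was 0.05, and without Dox library 1 it was 0.50, with 17 genes higher at the adjusted p (12.3% of all genes). Without the libraries numbered 3 the median was 0.37, with 0 genes at an unadjusted p under 0.05 (3.23% of all genes were higher at this limit). With every library scaled to the same total, a scaling that moved the median of all genes to 0.17, the family's median was 0.48, and 27 of its genes were higher at an unadjusted p under 0.05 (21.3% of all genes). That scaling turned the split of all genes at this limit from 13.6% higher and 15.4% lower to 21.3% and 10.3%.

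The difference from Tc-treated mice was tested at the same concentration in drinking water and the same time, since both drugs were given at 2 mg/mL for 7 days. How much of each drug reached the liver was not given in the sources used here. Doxycycline and tetracycline have the same fused ring skeleton and differ in the place of a hydroxyl group. Dox exceeded Tc by a median of 0.39 over the 78 genes (all genes tested, -0.02), and 76 genes had a value above 0 (48.7% of all genes tested). The number called was 0 of 78 (0.215% of all genes), and 0 passed the adjusted p alone in limma (0.231%) or in DESeq2 (8.07%). At an unadjusted p under 0.05, 11 genes were higher with Dox (10.6% of all genes) and 0 lower (11.1%). With the replicate number as a block in the model of all 9 libraries, 18 genes were higher at this limit (9.41% of all genes). With Dox and Tc alone in the fit, 13 were higher with the block (5.64%) and 3 without it (6.49%), and 0 were called in any of these. Without Dox library 2 the median was 0.15, and without the libraries numbered 3 it was 0.39. Without Dox library 1, 21 genes were higher at the adjusted p (11.5% of all genes). The Dox libraries lay above all Tc libraries for 9 genes (12.2% of all genes) and below them for 0 (12.4%). The 95% interval of the difference between the drugs lay within 2-fold either way for 51 of the 78 genes, and a p that misses the threshold does not show that the drugs act alike on the others.

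Tc against Control gave smaller values. The median log2 fold change was -0.06 (quartiles -0.15 and 0.02) beside 0.00 for all genes tested, and 26 genes had a value above 0 (50.5% of all genes). No gene was called (0.165% of all genes) or passed the adjusted p alone in limma (0.182%) or in DESeq2 (2.54%). At an unadjusted p under 0.05, 0 genes were higher in limma (5.27% of all genes) and in DESeq2 (5.85%), and 2 were lower in limma (6.4%), Rpl30 and Rpl34. The Tc libraries lay below all control libraries for 9 genes (14.9% of all genes) and above them for 2 (15.8%), Rplp2 and Rpsa. Without the libraries numbered 3 these counts were 18 lower (22% of all genes) and 11 higher (23.6%), and the median was -0.02. Without Dox library 2, which enters this comparison through the shared spread alone, the median was the same. The 95% interval lay within 2-fold either way for 74 of the 78 genes. Dox and Tc were compared with the same control libraries, so their values against controls are not independent.

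**Figure D3:**
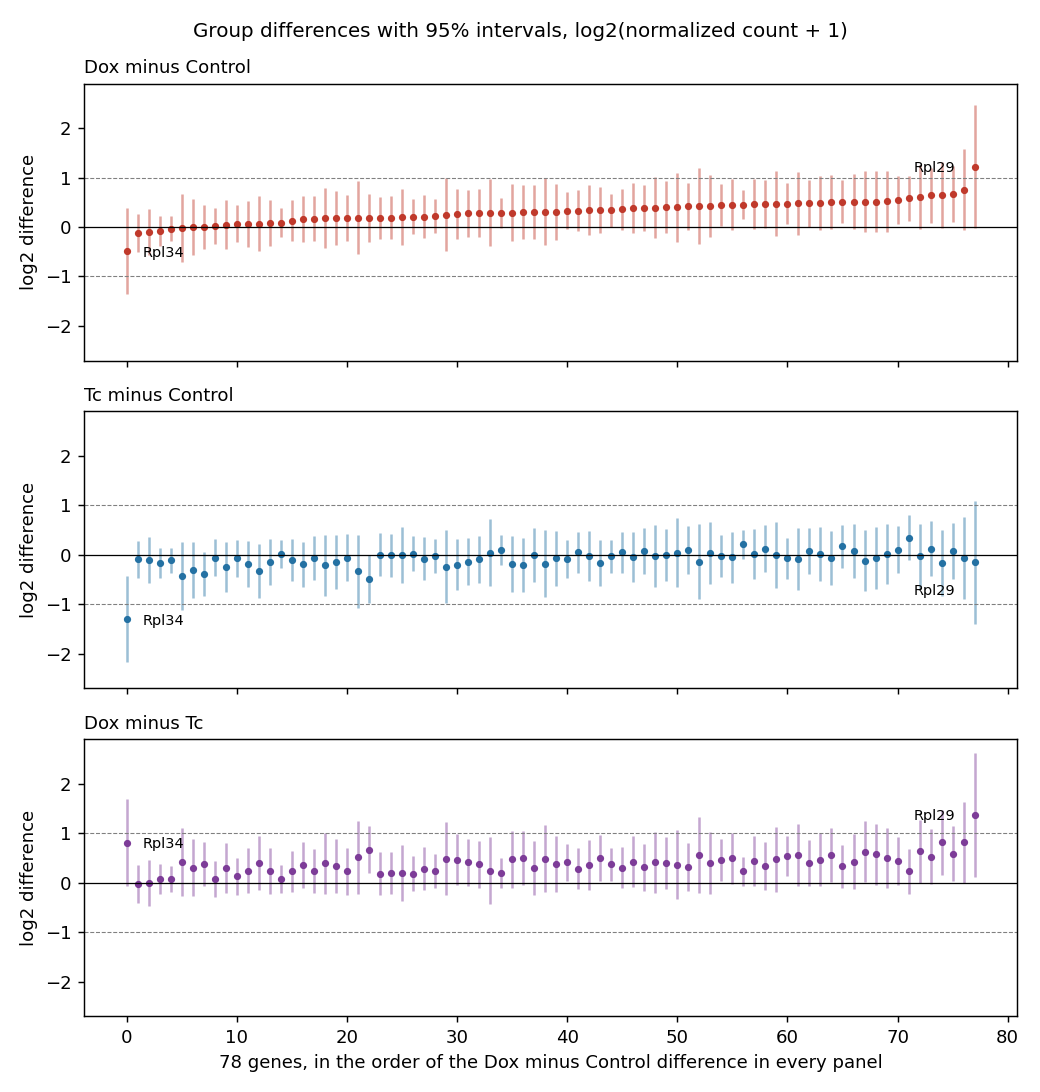
Difference between groups for each of the 78 genes (points) with its 95% interval (lines) from limma, on the scale of log2(normalized count + 1), with the genes in the same order in all 3 panels and dashed lines at a 2-fold difference. The Dox minus Control values had a median of 0.31 and the Tc minus Control values one of -0.06, and Rpl34 and Rpl29 lay farthest from the rest.

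The acidic stalk of the large subunit, which recruits elongation factors, differed among its proteins. Rplp0, the anchor of the stalk, had 2059, 1807 and 2076 normalized counts in the control libraries, 1632, 4337 and 2530 in the Dox libraries and 1813, 2302 and 2010 in the Tc libraries. Dox library 2 was the highest of the 9 and Dox library 1 the lowest, so the groups overlapped (log2 difference of Dox from Control 0.40 ± 0.31 SE, limma adjusted p = 0.41). Rplp1 and Rplp2 bind Rplp0 in pairs. Rplp1 had 2154, 2126 and 2253 in controls, 1901, 2769 and 2042 with Dox and 1932, 2316 and 2047 with Tc, and its groups overlapped (0.02 ± 0.16 SE, adjusted p = 0.95). Rplp2 had 639, 643 and 703 in controls, 728, 1279 and 904 with Dox and 730, 781 and 734 with Tc. Every library of both drugs was above every control library for Rplp2, though neither difference passed the adjusted p (Dox 0.51 ± 0.19 SE, adjusted p = 0.12, and Tc 0.18 ± 0.19 SE, adjusted p = 0.79).

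Rpsa showed the same order. It is a component of the small subunit that is also known as a laminin receptor. It had 1811, 1886 and 1910 normalized counts in controls, 2070, 3910 and 2548 with Dox and 1965, 2052 and 2029 with Tc. All 6 drug libraries were above the controls, and the values of Rpsa in the Dox libraries were all above those in the Tc libraries. The log2 difference of Dox from Control was 0.55 ± 0.21 (SE, limma adjusted p = 0.13), that of Tc from Control 0.11 ± 0.21 (SE, adjusted p = 0.90) and that of Dox from Tc 0.44 ± 0.21 (SE, adjusted p = 0.26).

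Rps27, Rps24, Rpl36 and Rps25 followed Rpl29 in the size of their difference from Control with Dox. Rps27, a zinc-finger protein of the small subunit, had 378, 441 and 496 normalized counts in controls, 501, 1229 and 647 with Dox and 447, 588 and 276 with Tc. Its Dox libraries were all above the controls, library 1 by little (0.76 ± 0.36 SE, limma adjusted p = 0.20). Rpl36, a large subunit protein, had 590, 578 and 612 in controls, 597, 1562 and 867 with Dox and 517, 537 and 534 with Tc. All its Tc libraries were below and Dox libraries 2 and 3 above the controls, and Dox exceeded Tc by 0.82 ± 0.29 (SE, adjusted p = 0.18). Without Dox library 1 it passed both limits in that comparison, the sole member to do so (1362 of the 12100 genes tested did).

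Rps24 and Rps25 are both of the small subunit. Rps24, in which variants cause Diamond-Blackfan anaemia, had 854, 754 and 932 normalized counts in controls, 988, 1905 and 1267 with Dox and 852, 1104 and 743 with Tc (Dox against Control 0.66 ± 0.25 SE, limma adjusted p = 0.12). Rps25 had 370, 368 and 430 in controls, 438, 886 and 582 with Dox and 421, 496 and 362 with Tc (0.65 ± 0.24 SE, adjusted p = 0.13). For both the Dox libraries lay above the controls and the Tc libraries overlapped them.

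Rpl35a had the lowest adjusted p of the family in Dox against Control. It is a large subunit protein and also a Diamond-Blackfan anaemia gene. Rpl35a had 278, 297 and 239 normalized counts in controls, 341, 403 and 369 with Dox and 321, 328 and 295 with Tc. The Dox libraries lay above the controls and above the Tc libraries, with a difference from Control of 0.45 ± 0.13 (SE, limma adjusted p = 0.064, DESeq2 adjusted p = 0.031) and, without Dox library 2, of 0.39 (adjusted p = 0.067). Tc differed from Control by 0.22 ± 0.13 (SE, limma adjusted p = 0.58).

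Rpl29 had the largest difference from Control with Dox and uneven Tc libraries. It is a large subunit protein also known for binding heparin. Rpl29 had 174, 150 and 163 normalized counts in controls, 322, 490 and 340 with Dox and 283, 50.4 and 214 with Tc. All its Dox libraries were well above the controls, Tc libraries 1 and 3 were above them too, and Tc library 2 was far below, the lowest of the 9. Dox differed from Control by 1.22 ± 0.55 (SE, limma adjusted p = 0.18), with a 95% interval from -0.03 to 2.46, and from Tc by 1.37 ± 0.55 (SE, adjusted p = 0.21). Without Tc library 2, which widens the spread that the 3 groups share, Rpl29 was called in Dox against Control (limma adjusted p = 0.017), as it was with only those 2 groups in the fit (adjusted p = 0.031). These fits called 557 and 333 of the 12100 genes tested. Of its 86-base runs, 65.9% occurred in transcripts of 33 other genes.

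Rpl34 had the lowest difference from Control with Tc. This large subunit protein had 475, 518 and 530 normalized counts in controls, 515, 252 and 364 with Dox and 114, 338 and 224 with Tc. The Tc libraries were all below the controls, and so were Dox library 2, in which nearly every other member was high, and Dox library 3. The log2 difference of Tc from Control was -1.30 ± 0.38 (SE, limma adjusted p = 0.27), the lowest adjusted p of the family in that comparison, with a 95% interval from -2.17 to -0.43. That of Dox from Control was -0.49 ± 0.38 (SE, adjusted p = 0.43). Of its 86-base runs, 37.0% occurred in transcripts of 6 other genes.

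**Figure D4:**
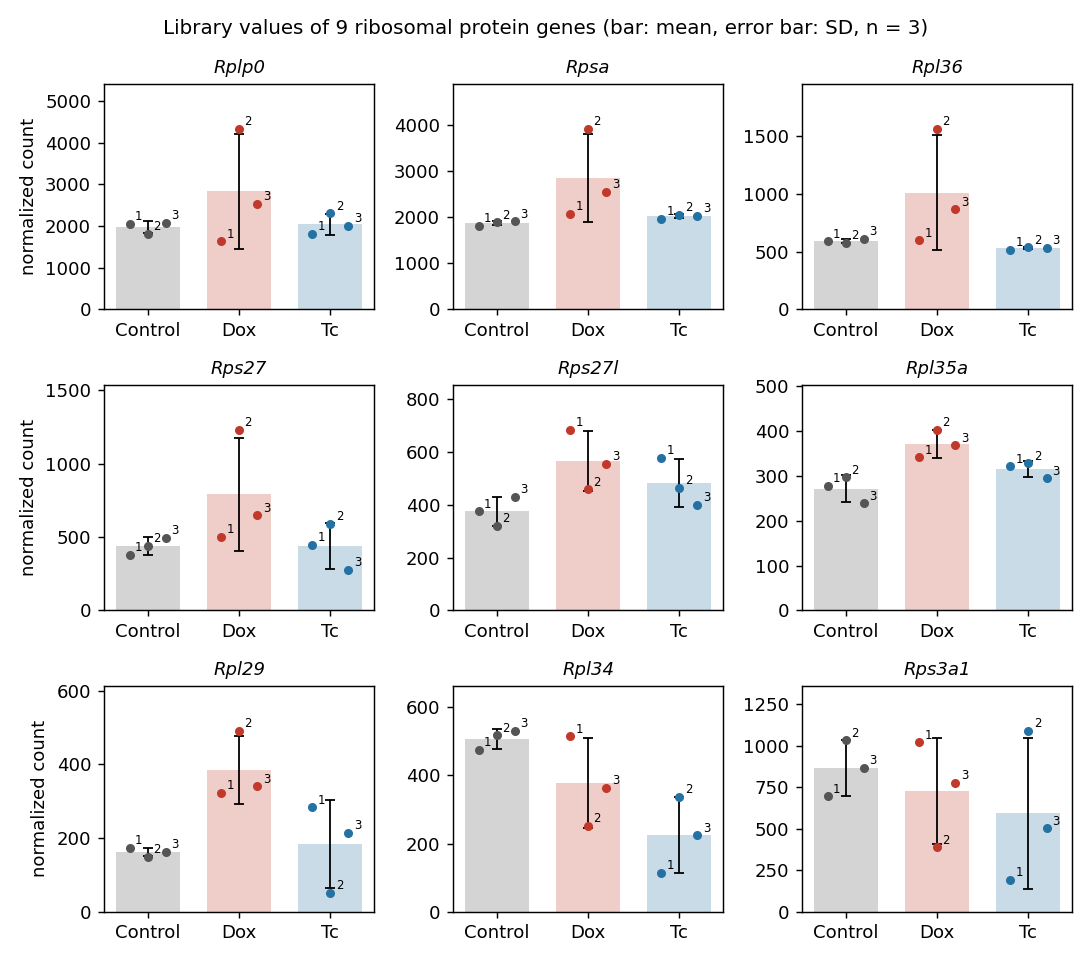
Normalized counts of 9 ribosomal protein genes in each library (points, numbered by replicate), with group means (bars) and SDs (error bars, n = 3), each panel on its own scale from 0. Dox library 2 was the highest of the 9 for Rplp0 (4337), Rpsa (3910), Rpl36 (1562) and Rps27 (1229), and was low for Rpl34 (252) and Rps3a1 (387).

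Among the members lowest with Tc, Rpl30 and Rpl35 lay below all control libraries. Rpl30, a small RNA-binding protein of the large subunit, had 333, 403 and 295 normalized counts in controls, 303, 534 and 361 with Dox and 231, 254 and 244 with Tc. Its Dox libraries overlapped the controls while every Tc library was lower than any other, and it had the lowest adjusted p of Dox against Tc in the family (0.67 ± 0.21 SE, limma adjusted p = 0.15). Rpl35, at the exit of the nascent chain tunnel, had 398, 436 and 379 in controls, 302, 535 and 410 with Dox and 300, 299 and 329 with Tc (Tc against Control -0.38 ± 0.19 SE, adjusted p = 0.51). Rps18 and Rps14 of the small subunit differed from Control with Tc by -0.33 ± 0.32 and -0.43 ± 0.30 (SE, adjusted p = 0.76 and 0.64). The controls of Rps14 were uneven, with 1725, 3066 and 1786 normalized counts, of which that of library 2 was the high one.

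A few members differed little between Dox library 2 and the controls. Rpl15 had 483, 452 and 445 normalized counts in controls, 432, 495 and 421 with Dox and 412, 443 and 422 with Tc. Its Tc libraries lay just below the controls and its Dox libraries on both sides of them (Dox against Control -0.04 ± 0.11 SE, limma adjusted p = 0.85). Rpl22, Rpl7a and Rpl41 were at 0.14, 0.25 and 0.27 above the control mean in Dox library 2 on the log2 scale, but Rpl41 was at -0.45 in Dox library 1. Between Dox libraries 2 and 1, 3 of the 78 genes had a lower value in library 2, Rpl34 (log2 difference -1.03), Rps27l (-0.57) and Rpl36al (-0.45).

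The members were also read by their place in the ribosome, in groups set after the values had been seen. In Dox library 2 the median relative level was 0.95 for the 3 stalk proteins, 0.69 for Rpl5 and Rpl11, which carry the 5S RNA and, when free, bind Mdm2, and 0.81 for 7 proteins at the nascent chain tunnel. It was 0.56 for 3 proteins of the mRNA entry channel, 0.94 for Rps26 and Rps28 at the mRNA exit and 0.82 for 11 Diamond-Blackfan anaemia genes. Rps27a, made as a fusion with ubiquitin, was at 0.80, and Rps6, the substrate of S6 kinase, at 0.99. Large and small subunit genes had medians of 0.70 and 0.83 in that library and of -0.07 and -0.03 in Dox library 1. All of these groups had medians above 0 in Dox library 2, and no gene of any of them passed limma's adjusted p against controls (8.41% of all genes did), while Rpl35a, a Diamond-Blackfan anaemia gene, passed that of DESeq2.

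The genes with and without each promoter feature were set side by side. In Dox library 2 the median was 0.74 for the 13 genes with a pyrimidine tract at the annotated start and 0.77 for the 45 without, and 0.90 for the 13 genes with the M4 core and 0.66 for the 45 without. Against controls, the median log2 fold change with Dox was 0.44 with the tract at the start and 0.29 without, and 0.40 with the ETS core and 0.27 without. These medians are descriptions, with quartiles in Dox library 2 from 0.55 to 0.99 for the genes with the tract and from 0.50 to 0.93 for those without.

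Paralogs of a pair could differ in pattern. Rps27 and Rps27l encode closely related proteins, and Rps27l is known as a p53 target. Their coding sequences have 252 bases each in GRCm38, within chr3:90212728-90213615 on the minus strand for Rps27 and chr9:66946175-66949354 on the plus strand for Rps27l, and differ at 60 bases (76.2% identical), which are in capitals. The longest run without a difference is 11 bases, far under the read length, so reads from the coding part can be told apart between the pair.
Rps27: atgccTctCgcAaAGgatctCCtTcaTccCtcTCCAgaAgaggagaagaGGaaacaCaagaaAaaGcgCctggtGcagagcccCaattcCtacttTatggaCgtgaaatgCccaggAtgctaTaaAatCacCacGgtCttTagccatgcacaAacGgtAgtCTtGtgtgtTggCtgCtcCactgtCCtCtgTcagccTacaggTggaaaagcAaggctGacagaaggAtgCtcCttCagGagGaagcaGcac
Rps27l: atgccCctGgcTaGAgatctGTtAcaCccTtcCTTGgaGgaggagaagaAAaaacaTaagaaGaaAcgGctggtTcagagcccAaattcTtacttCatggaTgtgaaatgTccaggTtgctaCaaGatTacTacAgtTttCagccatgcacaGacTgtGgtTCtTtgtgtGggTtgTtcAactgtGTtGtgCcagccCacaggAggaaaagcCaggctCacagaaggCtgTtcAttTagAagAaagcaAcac

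Rps27l had 375, 321 and 430 normalized counts in controls, 682, 458 and 554 with Dox and 578, 463 and 400 with Tc. It was highest in Dox library 1, where Rps27 had 501, and lowest of the Dox libraries in library 2, where Rps27 had its highest value, 1229. All Dox libraries of Rps27l were above all controls (0.58 ± 0.20 SE, limma adjusted p = 0.10), and without Dox library 2 the difference was 0.72 and passed the adjusted p (0.029), which no other member did (18.3% of all genes passed). With Tc the difference was 0.35 ± 0.20 (SE, adjusted p = 0.56), the highest of the family. Among 15 tested genes of ribosome surveillance and the p53 pathway, 1 was higher and 0 lower with Dox at the adjusted p, Abce1, an ATPase that splits ribosomes after termination.

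Rpl36a and Rpl36al differ at 39 of 318 coding bases (87.7% identical), with no run of more than 24 bases in common. The coding sequence of Rpl36a is spread over chrX:134585717-134587954 on the plus strand, and that of Rpl36al is a single stretch of 318 bases, chr12:69182819-69183136 on the minus strand. Rpl36a had 225, 222 and 193 normalized counts in controls, 208, 364 and 231 with Dox and 187, 226 and 189.5 with Tc. Rpl36al had 230, 240 and 261 in controls, 247, 181 and 252 with Dox and 234, 256 and 197 with Tc. In Dox library 2 Rpl36a was thus the highest and Rpl36al the lowest of the 9 libraries. Neither differed from Control with Dox at the adjusted p (0.28 ± 0.21 SE, limma adjusted p = 0.39, and -0.12 ± 0.17 SE, adjusted p = 0.67). Since 84.2% of the 86-base runs of Rpl36a and 60.3% of those of Rpl36al occurred in transcripts of other genes, the levels of both are uncertain. In the pairs of Rpl3 (mean 1340 normalized counts in controls), Rpl10 (1484) and Rpl39 (264) the liver form was the common gene, and Rpl3l, Rpl10l and Rpl39l were at or under the floor. In the pairs of Rpl22 (406) and Rpl7 (1761) both genes were present. Rpl22l1 had 165, 144 and 182 normalized counts in the control libraries and Rpl7l1 had 483, 479 and 455.

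The 6 ribosomal components of another list have other symbols and were kept apart from the 78. Rack1, a scaffold on the small subunit, had 2063, 2091 and 2197 normalized counts in controls, 2023, 4446 and 2741 with Dox and 2058, 2552 and 2205 with Tc. Fau, which encodes a ubiquitin-like protein fused to a small subunit protein, had 700, 651 and 713 in controls, 663, 1413 and 860 with Dox and 672, 603 and 636 with Tc. Both were high in Dox library 2 in the manner of the 78 genes (Dox against Control 0.46 ± 0.26 and 0.44 ± 0.24 SE, limma adjusted p = 0.27 and 0.26). Rpl22l1, the paralog of Rpl22, was also highest there, at 357 against 144 to 182 in controls. Rps3a1 was not: it had 695, 1032 and 866 in controls, 1019, 387 and 775 with Dox and 192, 1087 and 502 with Tc. Like Rpl34 it was low in Dox library 2 and lowest in Tc library 1, and its SE was 0.58 (-0.34, adjusted p = 0.72 with Dox, and -0.85, adjusted p = 0.64 with Tc). Rpl7l1 overlapped between groups.

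The machinery that makes and serves ribosomes was read from gene lists, by the median of each list relative to controls. In Dox library 2 the median was 1.21 for 37 ribosome biogenesis factors, 0.75 for 14 genes of RNA polymerase I and its factors, and 0.55 for 24 elongation factor and other TOP mRNA genes. It was 0.45 for 22 initiation factors and 0.35 for 19 genes of growth signalling to the ribosome (mTORC1, LARP1, S6 kinase and MYC). Of lists of other abundant or short mRNAs, the 7 mitochondrial genome transcripts tested had a median of 0.96 there. The median was -0.14 for 77 mitochondrial ribosomal proteins, 0.04 for 73 nuclear respiratory chain subunits, -0.04 for 37 proteasome subunits and -0.35 for 767 other genes with a short transcript (under 1 kb). The 4116 other genes within the family's range of levels had a median of -0.03. Dox library 1 ran the other way for several of these, with 0.44 for the respiratory chain, 0.32 for the proteasome and 0.26 for the mitochondrial ribosome against -0.04 for the cytosolic ribosomal proteins.

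**Figure D5:**
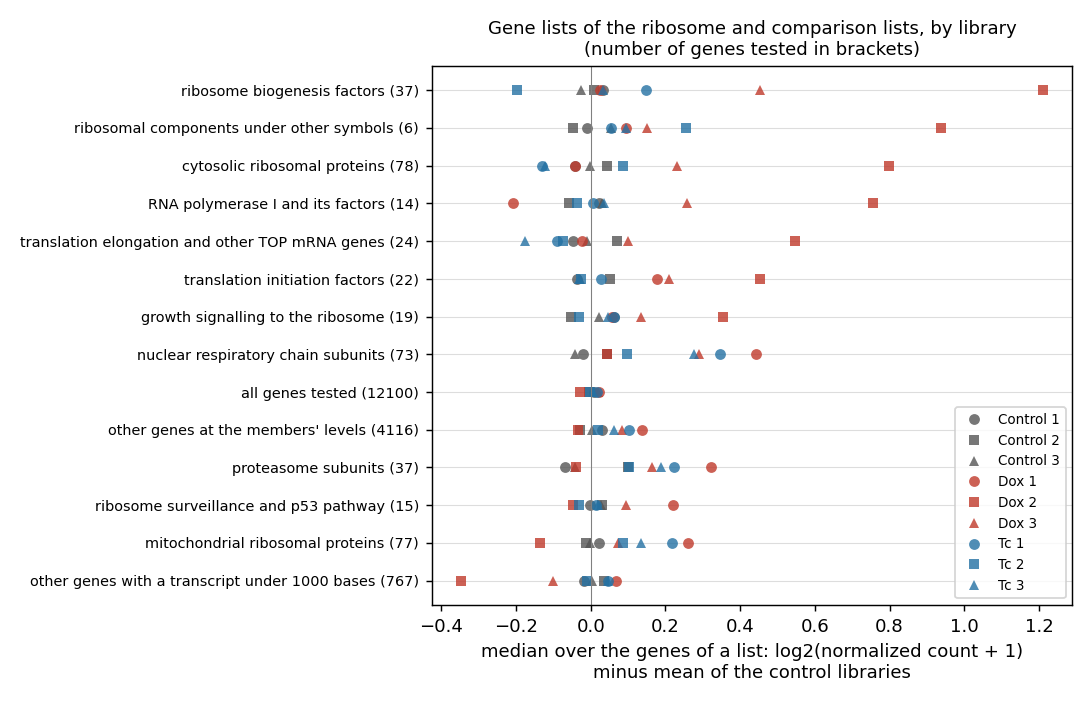
Median of each gene list in each library (x axis, log2(normalized count + 1) minus the mean of the control libraries; colour for group, symbol shape for replicate number), with the number of genes tested in brackets. Lists of the cytosolic ribosome and its assembly lay far to the right in Dox library 2 (1.21 for biogenesis factors, 0.80 for the ribosomal proteins), while the mitochondrial ribosome (-0.14) did not.

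Few genes of these lists passed limma's adjusted p with Dox against Control, at which 8.41% of all genes passed. DESeq2, at whose adjusted p 17.1% of all genes passed, gave 8 of 37 biogenesis factors, 3 of 22 initiation factors, 3 of 19 signalling genes, 2 of 14 RNA polymerase I genes, 1 of 24 TOP mRNA genes and 1 of 15 surveillance genes. The counts and p-values that follow are those of limma. Of the biogenesis factors 1 of 37 was higher and 0 lower, Mrto4, which acts on the growing large subunit. Mrto4 had 102, 116 and 103 normalized counts in controls and 151, 202 and 179 with Dox (0.72 ± 0.15 SE, limma adjusted p = 0.029). Nop58, a core protein of box C/D particles that guide ribosomal RNA methylation, had 196, 140 and 145 in controls and 159, 740 and 329 with Dox, and Gnl3, a nucleolar GTPase, 325, 194 and 215 in controls and 319, 933 and 560 with Dox. Both were high in Dox libraries 2 and 3 and within the control range in library 1 (1.09 ± 0.48 and 1.20 ± 0.40 SE, adjusted p = 0.17 and 0.10). Of the initiation factors 2 of 22 were higher and 0 lower, Eif3j1 and Eif5. Eif5, the GTPase activator at start codon selection, had 2362, 1957 and 2069 in controls and 2987, 3315 and 2921 with Dox, with no overlap between the groups (0.53 ± 0.13 SE, adjusted p = 0.039).

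Of the growth signalling genes 1 of 19 was higher and 0 lower. This was Tsc1, an inhibitor of mTORC1, with 476, 409 and 456 normalized counts in controls and 655, 998 and 714 with Dox (0.80 ± 0.17 SE, limma adjusted p = 0.031). Sesn2, a leucine sensor that inhibits mTORC1, had 96.3, 118 and 118 in controls, 83.2, 841 and 311 with Dox and 83.0, 174 and 112 with Tc. It was high in Dox library 2, the library in which the ribosomal protein genes were high (1.34 ± 0.70 SE, adjusted p = 0.24). Of the TOP mRNA genes 0 of 24 passed, as did 0 of 14 RNA polymerase I genes. Without Dox library 2 the medians against Control were 0.25 for the biogenesis factors, 0.01 for RNA polymerase I and its factors, 0.13 for the initiation factors and 0.03 for the TOP mRNA genes, beside 0.05 for the cytosolic ribosomal proteins. With Tc against Control none of these 5 lists, of biogenesis, RNA polymerase I, initiation, TOP mRNA and signalling genes, held a gene past limma's adjusted p (0.182% of all genes), while DESeq2 gave 1 TOP mRNA gene and 1 RNA polymerase I gene (2.54% of all genes), and their medians were between -0.13 and 0.06. Of the lists of other kinds, 2 of 77 mitochondrial ribosomal proteins (Mrpl47 and Mrps31), 3 of 73 respiratory chain subunits (Cox6b1, Cox8a and Uqcr10) and 1 of 37 proteasome subunits (Psmd3) were higher with Dox, with 0 lower, and 0 of 7 mitochondrial genome transcripts passed. DESeq2 gave 5, 13, 3 and 6 genes of these 4 lists.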

How the data were processed

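Livers of 9 mice (3 Control, 3 Dox, 3 Tc) were profiled by single-end RNA-seq of 86 bases from a strand-specific kit. The authors trimmed reads with cutadapt, aligned them to mm10 with STAR 2.7.11ac, counted unique alignments with HTSeq 2.0.5 and divided the counts by DESeq2 1.42.0 size factors. The deposited signal is this table of normalized counts, and the strand setting was not given in the sources used here. The value of 1 read in each library was recovered from the table, and 100% of values were whole reads within 0.001.

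The 12100 genes averaging 10 or more normalized counts were tested on log2(normalized count + 1) with limma 3.58.1 (R 4.3.3, all 9 libraries in 1 fit, intensity trend, two-sided, Benjamini-Hochberg over all of them), after checks on simulated data. A fold change is therefore on the log2(value + 1) scale and understates the change of low genes. A gene was called at a fold over 2 and an adjusted p under 0.05. DESeq2 1.42.0 and edgeR 4.0.16 were run on the recovered reads as alternatives. Deviations from the group mean correlated between Dox and Tc libraries of the same number (r = 0.29, 0.32 and 0.18), so the numbers, which come from the labels, were also used as a block. The labels do not say which mouse or culture a replicate is, so p-values measure the spread between these libraries.

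Members and gene lists were chosen with earlier results of these data known. Genes named were the highest and lowest in each comparison and in level per length, the stalk genes and Rpsa, paralog pairs, the called or extreme genes of each list, and genes said to be chosen after their values were seen. Role groups were set after the values were seen. Promoter windows, coding sequences and read-length runs came from RefSeq and GENCODE files of GRCm38. Some genes are not reported here.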

Additional observations from a re-analysis of the deposited data

How the results depend on the processing

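The median of the 78 genes, the counts and the shares kept their direction in most settings, with 232 values within 1.5 times or 1 SD of the reported ones and 47 outside, and of the single genes 553 values kept direction and call, 25 turned sign and 6 passed the threshold anew. Where no cause is given, the cause was not tested. Genes higher with Dox against Control at an unadjusted p under 0.05 (10) numbered 27 with equal totals, 21 in DESeq2, 6 with only those groups in the fit, 54 with limma array weights, 0 (limma) and 1 (DESeq2) without the libraries numbered 3, which leaves 2 per group, and 2 to 44 with 1 library left out. The called gene count (0) became 1 with only those groups (333 of all 12100 genes tested) and with array weights (1555), and 0 to 1 with 1 library left out (33 to 1500). Genes lower with Tc against Control (2) numbered 1 with equal totals, 4 with only those groups, 14 with array weights, 0 without libraries 3 in limma and DESeq2, and 1 to 3 with 1 library left out. The share of all genes lower was 5.33% with equal totals, 12.9% with only those groups and 20.9% with array weights. It was 1.17% without libraries 3 in limma and 3.47% to 11% with 1 library left out. Array weights also gave 1 gene called (737 of all 12100 genes tested) and 1 higher with Tc (20.7% of all genes), and leaving out 1 library gave 0 to 1 higher. Genes higher with Dox against Tc (11) numbered 31 with equal totals, 22 in DESeq2, 3 with only those groups, 64 with array weights, 18 with the replicate block, 3 with no block in a fit of Dox and Tc only, 0 (limma) and 1 (DESeq2) without libraries 3, and 3 to 55 with 1 library left out. Likewise 1 gene was called there with array weights (1071 of all 12100 genes tested), and 0 to 1 with 1 library left out (0 to 1362). The block changed no other call. Array weights called many genes of every kind: 35.5% of all genes were higher with Dox against Control and 32.2% with Dox against Tc at the unadjusted limit, and the adjusted p was passed by 52 and 63 of the 78 genes beside 65.6% and 62.3% of all genes. For the other settings the share of all genes higher was 21.3% (equal totals), 16.3% (DESeq2) and 10.3% (only those groups) in Dox against Control, and 18%, 13.8% and 6.49% in Dox against Tc. With 1 library left out this share was 8.94% to 20.4% in Dox against Control and 6.05% to 20.4% in Dox against Tc. The following genes changed sign. With Dox against Control, Rpl15 was at 0.14 with equal totals and -0.11 to 0.0077 (without Dox library 3) with 1 library left out, Rpl22 at 0.098 with equal totals and 0.023 (limma) and 0.033 (DESeq2) without libraries 3, Rpl36al at 0.057 with equal totals, 0.012 with array weights and -0.20 to 0.038 (without Dox library 2) with 1 left out, and Rpl41 at 0.069 with equal totals and -0.29 to 0.068 (without Dox library 1). With Tc against Control, Rps25 was at -0.077 and Rps29 at -0.057 with array weights. With Dox against Tc, Rpl36al was at 0.15 with equal totals, 0.27 with array weights (adjusted p = 0.0054), -0.13 to 0.13 (without Dox library 2) with 1 left out, and 0.060 without Tc library 2. Rpl41 was at 0.17 with equal totals, 0.014 in DESeq2, 0.011 in edgeR, 0.12 (limma) and 0.16 (DESeq2) without libraries 3, -0.19 to 0.17 (without Dox library 1) with 1 left out, 0.011 without Dox library 3 and 0.11 without Tc library 3. Rpl7a was at -0.0097 (without Dox library 2) to 0.13 with 1 left out. Rpl29 in Tc against Control was at -0.15 in limma and 0.17 in DESeq2.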
